A study of Mus musculus with 19 samples.

Results

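Macrophages of mouse perigonadal fat were read out through 10 genes, taken from the count tables by their symbols. The rule uses no measured value, but the set was put together with earlier results of these data known. The set holds 3 pan-macrophage genes (Cd68, Csf1r, Mertk), 4 genes of resident and perivascular macrophages (Mrc1, Cd163, Lyve1, Folr2), the receptor of recruited monocytes (Ccr2) and 2 genes of alternatively activated macrophages (Clec10a, Retnla). All 10 are among the 24348 genes listed in each library, and each of the 10 passed the filter on low counts, which left 16015 genes to test. None of the 10 passed the test in any of 5 comparisons of diet and feeding state at an adjusted p under 0.05. The fitted values ran in different directions within the set. Among fasted animals the log2 fold change of Ensure against HFD was -2.10 ± 0.62 (SE) for Cd68 and 1.43 ± 0.42 for Cd163, the 2 genes that came nearest to the threshold between the diets (n = 5 and 4). Both differences were smaller without HFD fasted library 28, which had the most Cd68 and the least Cd163 of all libraries (Cd68 then at -1.07). The sequencing lane also differed between the fasted diets. In Ensure fasting the gene nearest to the threshold was Mertk, at 0.47 ± 0.17 (n = 5 and 6).

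Polyadenylated RNA was sequenced from the undivided perigonadal adipose depot of C57BL/6 mice that had gained weight on 1 of 2 foods, a high-fat diet labelled HFD 60% (titles ALO and ALOneg) or ENSURE, a liquid nutrition product (titles OIO and OIOneg). Each food was sampled in animals labelled fed at peak weight and in animals that had gone 24 h without feeding, called fasted here. HFD was represented by 4 fed and 4 fasted libraries and Ensure by 6 fed and 5 fasted ones, each named by its group and the number in its title. All groups carry the same strain label and no transgene or deletion is named; age is not given in the sources used here, and lean or chow-fed animals were not analysed here. Whether libraries are from different animals is not stated in the labels, and a p-value then reflects only how far these samples spread, which may be technical.

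Tissue macrophages depend on the growth factor receptor encoded by Csf1r, and in fat they clear dead adipocytes, take up lipid and lie along blood vessels. Perivascular and resident cells typically carry the scavenger receptors CD163 and MRC1 (CD206), the hyaluronan receptor LYVE1 and the folate receptor FOLR2, whereas monocytes that enter the tissue follow the chemokine CCL2 through CCR2. Obesity is known to add lysosome-rich, lipid-laden macrophages with high CD68 to visceral fat, and the interleukins IL-4 and IL-13 are known to raise the lectins MRC1 and CLEC10A and the secreted protein encoded by Retnla.

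The 250 bases before the start site are shown for 4 genes: Cd68 and Cd163, whose fitted differences between the diets had opposite signs, Mrc1, and Retnla, which passed with no other gene of the set when pairs were correlated over all libraries by both measures used. Promoters of 7 of the 10 genes matched the RefSeq table (build GRCm38.p6), and Folr2 had 2, which gave 8 promoters. Capitals mark matches, on either strand, to the PU box GAGGAA, the STAT6-type palindrome (TTC and GAA with any 4 bases between), the MAF motif TGCTGAC and the TATA box TATAAA, and no marked matches overlap. Each is printed 5′ to 3′ on the gene's own strand.
Cd68 (chr11:69666171-69666420, minus strand): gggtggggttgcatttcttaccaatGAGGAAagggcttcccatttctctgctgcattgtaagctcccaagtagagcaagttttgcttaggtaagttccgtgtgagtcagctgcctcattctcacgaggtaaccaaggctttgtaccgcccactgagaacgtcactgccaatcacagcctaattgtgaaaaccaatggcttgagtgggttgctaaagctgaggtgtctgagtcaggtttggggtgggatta
Mrc1 (chr2:14229164-14229413, plus strand): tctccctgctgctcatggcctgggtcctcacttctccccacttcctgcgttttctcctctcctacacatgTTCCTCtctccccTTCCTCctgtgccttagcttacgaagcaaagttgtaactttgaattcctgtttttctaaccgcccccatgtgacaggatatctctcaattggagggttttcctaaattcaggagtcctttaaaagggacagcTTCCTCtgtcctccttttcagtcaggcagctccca
Cd163 (chr6:124304401-124304650, plus strand): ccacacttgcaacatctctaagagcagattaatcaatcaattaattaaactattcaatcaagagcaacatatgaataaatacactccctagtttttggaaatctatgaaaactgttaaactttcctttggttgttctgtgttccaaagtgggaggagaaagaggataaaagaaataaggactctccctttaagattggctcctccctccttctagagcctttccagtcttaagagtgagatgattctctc
Retnla (chr16:48842359-48842608, plus strand): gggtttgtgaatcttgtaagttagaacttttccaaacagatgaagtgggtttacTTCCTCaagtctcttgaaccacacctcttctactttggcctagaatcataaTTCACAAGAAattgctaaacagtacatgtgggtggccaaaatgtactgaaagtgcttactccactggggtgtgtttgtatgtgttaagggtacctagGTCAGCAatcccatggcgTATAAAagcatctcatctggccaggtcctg
The Retnla promoter held all 4 motifs, with the STAT6-type match starting 145 bases, the MAF motif 48 bases and the TATA box 30 bases before the start. Mrc1 held 3 PU boxes, at 180, 167 and 35 bases, and Cd68 held 1, at 225 bases. The Cd163 stretch held no match to the 4 motifs. Among all 32851 promoters of the table cut to the same length, 23.3% held a PU box, 5.85% the STAT6-type palindrome, 3.81% the MAF motif and 12.4% the TATA box. A match is a description of letters and not a measured binding site.

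Depth was 12.82 to 22.55 M gene counts per library (median 20.23 M), and Ensure fasted 2 was the shallowest. Levels are counts per 1 M gene counts (CPM), scaled by TMM, a method that corrects for differences in library composition. A gene is said to pass a test where its p from edgeR's quasi-likelihood F test, adjusted over all tested genes by Benjamini-Hochberg, is under 0.05, and fold changes are on the log2 scale with their standard error (SE). Of 10 adipocyte marker genes, 10 were detected, and they summed to 12300 to 31300 CPM. The 16 genes of the neighbouring reproductive tract (epididymis and testis) together had 311 CPM in HFD fasted 24, 652 and 222 CPM in Ensure fed 10 and 12, and 1120 and 9900 CPM in Ensure fasted 2 and 5, while no other library exceeded 80.6 CPM. Ensure fasted 5 also had 8660 CPM of 8 smooth muscle genes, against at most 1180 CPM elsewhere, and the fewest adipocyte counts. All HFD libraries were sequenced in lane 7. The Ensure libraries came from lane 5 (1 fed, 4 fasted), lane 6 (4 fed, 1 fasted) and lane 7 (1 fed), so diet and lane can be told apart only through Ensure fed 18.

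By the median over all 19 libraries, levels per kilobase of exon were highest for Retnla (297 CPM per kb, group means of 246 to 566) and then Cd68 (93.1 CPM per kb, group means of 66.4 to 447). The order differed between groups, with Cd68 (447) above Retnla (246) in HFD fasted and Cd68 (66.4) just below Folr2 (68.3 CPM per kb) in Ensure fed. Group means were 60.6 to 74.0 for Csf1r, 47.2 to 84.7 for Folr2 and 38.1 to 50 CPM per kb for Mrc1. Lyve1, Clec10a, Cd163, Ccr2 and Mertk had group means of 8.44 to 32.3 CPM per kb. Exon lengths come from a later annotation than the one the counts were made with. In that annotation an exon of Csf1r overlaps Hmgxb3 and one of Folr2 overlaps Gm10602, each on the opposite strand, so that reads could be shared if strand was not used.

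**Figure D1:**
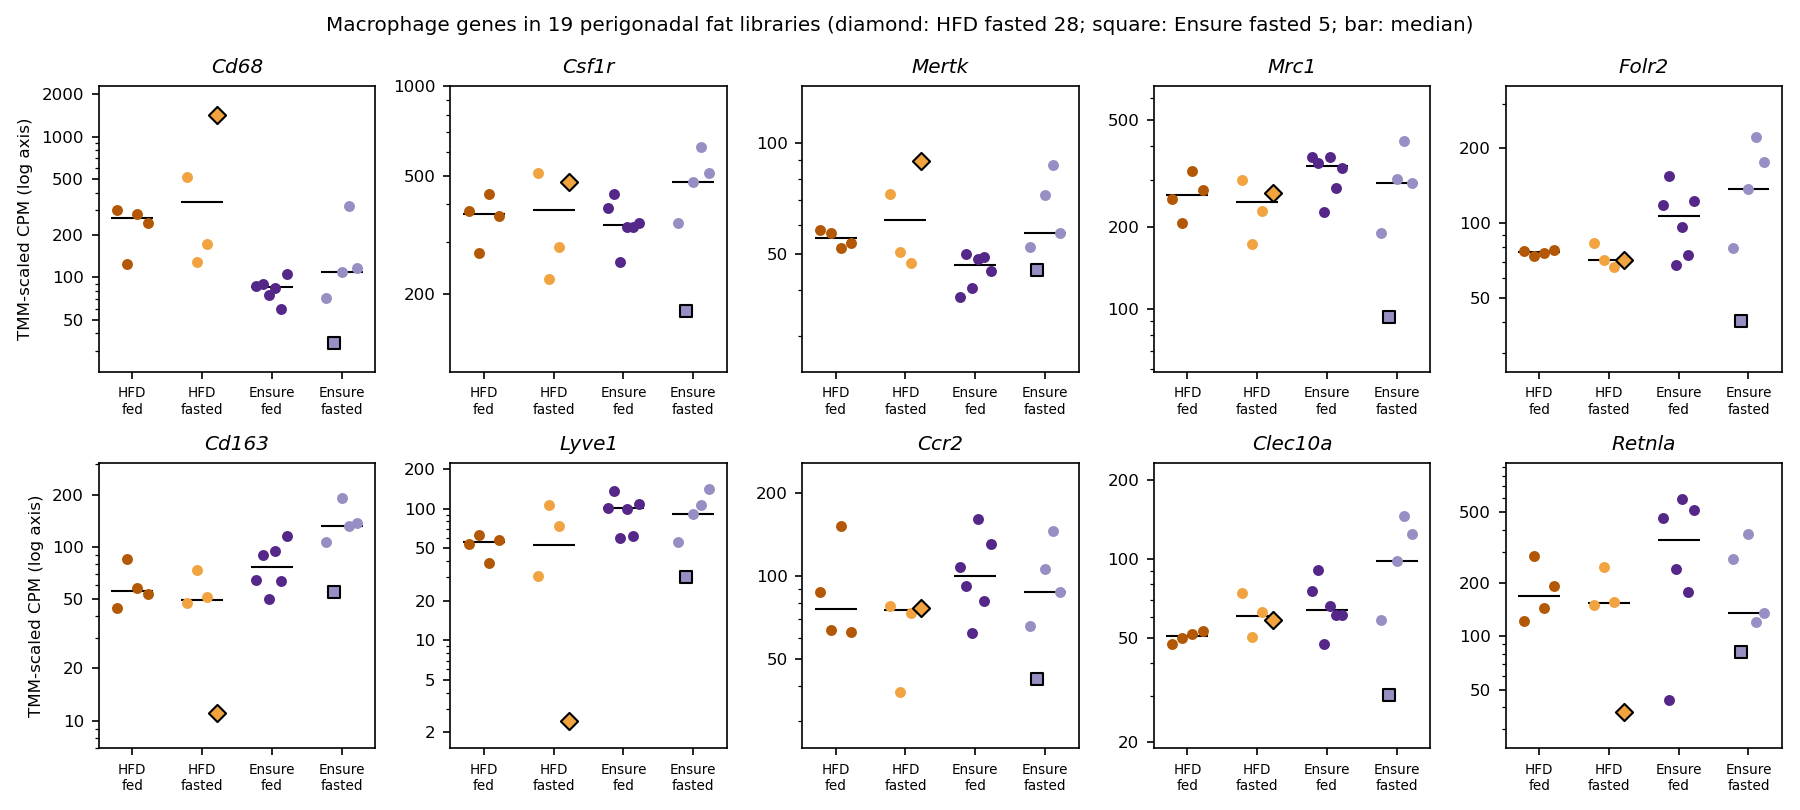
Level of each of the 10 genes in each library (TMM-scaled CPM, log axis, 1 panel per gene with its own scale), with libraries as points, the group median as a bar, HFD fasted 28 as a diamond and Ensure fasted 5 as a square. Cd68 in the fed groups lay at 124 to 301 CPM with HFD and at 59.4 to 105 CPM with Ensure, while HFD fasted 28 was the highest library in Cd68 and the lowest in Lyve1 and Cd163.

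Cd68 encodes a lysosomal membrane glycoprotein of macrophages. Its level was 301, 124, 282 and 245 CPM in HFD fed 21, 22, 25 and 27, and 516, 129, 172 and 1430 CPM in HFD fasted 23, 24, 26 and 28. With Ensure it ranged from 59.4 to 105 CPM in the fed libraries (median 85.9), and it was 71.9, 34.2, 110, 322 and 117 CPM in Ensure fasted 2, 5, 7, 8 and 17. The fed groups did not overlap, and the fasted groups overlapped through the high Ensure fasted 8 and the low HFD fasted 24 and 26. In order of group means the levels were 561 ± 602 CPM in HFD fasted, 238 ± 79.4 in HFD fed, 131 ± 112 in Ensure fasted and 83.4 ± 15.2 in Ensure fed (SD), and neighbours in this order overlapped. The log2 fold change of Ensure fed against HFD fed was -1.51 ± 0.58 (95% interval -2.74 to -0.29, adjusted p = 0.16). That of Ensure fasted against HFD fasted was -2.10 ± 0.62 (interval -3.41 to -0.79, adjusted p = 0.0745). Adjusted p for the fasted diets was 0.031 without HFD fasted 24 (log2 fold change -2.43), 0.0431 without HFD fasted 26 (-2.42) and 0.0227 without Ensure fasted 8 (-2.75). Without HFD fasted 28 it was 0.357 at -1.07. Fasting gave 1.23 ± 0.65 with HFD (adjusted p = 0.389), of which 0.19 was left without HFD fasted 28, and 0.65 ± 0.55 with Ensure (adjusted p = 0.416), of which -0.04 was left without Ensure fasted 8. In lane 7 alone Ensure fed 18 was 1.11 below the HFD fed libraries on the log2 scale.

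In RNA of an undivided tissue, fewer cells of a type and less RNA per cell cannot be told apart, for Cd68 and for every gene below. Beside Cd68, 5 of 14 genes of lipid-associated macrophages passed between the fed diets, all lower with Ensure, among them Gpnmb (log2 fold change -4.29, adjusted p = 0.0101) and Itgax (-2.56, adjusted p = 0.0123). Across all genes 2.17% passed in that direction, and 3 of the 14 had a positive fold. The list's summed level was higher with Ensure (median 20600 CPM in Ensure fed, 15400 CPM in HFD fed), most of it Lpl, a lipase that adipocytes also make, at 19400 ± 1120 and 12300 ± 2280 CPM (SD). The count was 2 without HFD fed 21, HFD fed 27 or Ensure fed 1, 3 without Ensure fed 9 or 12, 8 without HFD fasted 24 and 9 without HFD fasted 28. Between the fasted diets 5 of 14 passed lower, beside 1.19% of all genes. That count was 2 without HFD fasted 28, Ensure fasted 7 or Ensure fasted 17, 8 without HFD fasted 26, 10 without HFD fasted 24 and 12 without Ensure fasted 8. It was 0 with the compared groups alone, a fit in which 1 of 15431 genes passed. Between the fed diets that setting called 13 of the 14, in either direction, where it called 2933 of 14838 genes. DESeq2 called 9 of 14 between the fed and 11 between the fasted diets, where it called 1551 and 1295 genes in all. Voom with sample weights called 13 and 9, and 5441 and 3418 genes in all. With lane as a term the count was 0 for both pairs of diets, where 2 and 0 of 16015 genes passed. With lane as a term Gpnmb was at -3.66 and Itgax at -2.17 between the fed diets, and neither passed. Gpnmb was at 312 to 1180 CPM in HFD fed and 18.8 to 91.3 CPM in Ensure fed libraries. HFD fasted 28, the library with the most Cd68, also had the most Trem2 (690 CPM, against at most 236 in any other) and Gpnmb (4330 CPM). The part of these cells in the Cd68 values was not tested.

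Csf1r, the receptor for CSF1 and IL-34, was the most even of the pan-macrophage genes between groups. It was at 379, 275, 434 and 365 CPM in the HFD fed libraries 21, 22, 25 and 27, and at 510, 225, 288 and 476 CPM in HFD fasted 23, 24, 26 and 28. Ensure fed libraries ranged from 256 to 434 CPM (median 341), and Ensure fasted 2, 5, 7, 8 and 17 were at 347, 175, 476, 626 and 511 CPM. The 4 groups overlapped throughout, with the lowest and the highest of all 19 libraries both among the Ensure fasted. The log2 fold changes were 0.04 ± 0.31 and 0.29 ± 0.27 for fasting with HFD and Ensure, and -0.06 ± 0.28 and 0.19 ± 0.30 for Ensure against HFD, fed and fasted (adjusted p = 0.457 to 0.956). The 95% interval between the fed diets, -0.66 to 0.54, bounds the difference without showing that there was none.

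Mertk encodes a receptor kinase through which macrophages engulf dying cells. It was at 58, 57.1, 52 and 53.7 CPM in HFD fed 21, 22, 25 and 27 and at 72.6, 50.7, 47.2 and 89.3 CPM in HFD fasted 23, 24, 26 and 28. Ensure fed libraries lay lower, at 38.3 to 49.9 CPM (median 46.8), and did not overlap with HFD fed. Ensure fasted 2, 5, 7, 8 and 17 were at 52.2, 45.2, 72.1, 87.2 and 57 CPM, so 4 of the 5 lay above every Ensure fed library. For Ensure fasted against fed the log2 fold change was 0.47 ± 0.17 (95% interval 0.11 to 0.83, adjusted p = 0.0577), the smallest adjusted p of the set in that comparison, where 20.3% of all genes passed. It was 0.031 without Ensure fasted 5 (0.52) and 0.0352 without HFD fasted 28 (0.42), and 0.176 without Ensure fasted 8 (0.29). Fasted minus fed was 0.69 in lane 5 and 0.28 in lane 6. With lane as a term no gene of the set passed, where 760 of 16015 genes did in Ensure fasting. With HFD the value was 0.23 ± 0.20 (adjusted p = 0.599), and the difference between the 2 fasting responses was 0.24 ± 0.26 (adjusted p = 0.871). Ensure fed against HFD fed gave -0.29 ± 0.18 (adjusted p = 0.435).

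Mrc1, the mannose receptor CD206, was at 254, 208, 323 and 274 CPM in HFD fed 21, 22, 25 and 27. It was at 300, 174, 230 and 267 CPM in HFD fasted 23, 24, 26 and 28 and at 229 to 364 CPM in the Ensure fed libraries (median 338). Ensure fasted 2, 5, 7, 8 and 17 were at 190, 93.8, 301, 416 and 293 CPM. All groups overlapped, and Ensure fasted 5, the library with the most epididymis and smooth muscle RNA, was the lowest of 19. Log2 fold changes lay between -0.30 ± 0.27 (Ensure fasting, adjusted p = 0.437) and 0.27 ± 0.29 (Ensure fed against HFD fed, adjusted p = 0.716). The Ensure fasting value was 0.01 without the 5 tract-rich libraries, -0.14 without Ensure fasted 5 and -0.58 without Ensure fasted 8 (adjusted p = 0.103).

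Cd163, the scavenger receptor for haptoglobin bound to haemoglobin, had the largest fitted difference between the fasted diets among the 4 resident genes of the set. HFD fed 21, 22, 25 and 27 were at 44.3, 85.4, 57.7 and 53.4 CPM, and HFD fasted 23, 24, 26 and 28 at 47.5, 73.9, 51.8 and 11.1 CPM. Ensure fed libraries ranged from 50 to 115 CPM (median 76.9), and Ensure fasted 2, 5, 7, 8 and 17 were at 106, 55.2, 191, 131 and 137 CPM. Apart from Ensure fasted 5, every Ensure fasted library was above every HFD fasted library. The group means ran from 124 ± 49.4 CPM in Ensure fasted through 79.5 ± 24.4 in Ensure fed and 60.2 ± 17.7 in HFD fed to 46.1 ± 26.1 in HFD fasted (SD), and neighbours in this order overlapped. Ensure fasted against HFD fasted had a log2 fold change of 1.43 ± 0.42 (95% interval 0.53 to 2.32, adjusted p = 0.0755), in a comparison where 2.82% of all genes passed. Adjusted p was 0.0401 without HFD fasted 24 (1.75) and 0.0369 without Ensure fasted 5 (1.58), while it was 0.161 without Ensure fasted 7 (1.21) and 0.138 without HFD fasted 28 (1.07). DESeq2 gave 1.41 (adjusted p = 0.0148). Fed diets differed by 0.40 ± 0.40 (adjusted p = 0.685). Fasting gave -0.38 ± 0.43 with HFD and 0.64 ± 0.37 with Ensure (adjusted p = 0.702 and 0.219), and the difference of the 2 responses, 1.03 ± 0.57, did not pass (adjusted p = 0.713).

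Lyve1, the hyaluronan receptor of perivascular macrophages and of lymphatic vessels, had the widest range of the set. It was at 53.6, 63.3, 38.8 and 58 CPM in HFD fed 21, 22, 25 and 27, and at 30.9, 106, 74.1 and 2.41 CPM in HFD fasted 23, 24, 26 and 28. The value of HFD fasted 28 rests on 44 counts. Ensure fed libraries ranged from 59.5 to 135 CPM (median 100), and Ensure fasted 2, 5, 7, 8 and 17 were at 55.3, 30.3, 90.9, 106 and 140 CPM. The groups overlapped, the fed diets only through HFD fed 22. Ensure fed against HFD fed gave a log2 fold change of 0.82 ± 0.60 (adjusted p = 0.532) and Ensure fasted against HFD fasted 0.66 ± 0.62 (adjusted p = 0.594), or 0.22 without HFD fasted 28. The 2 fasting values were 0.00 ± 0.64 and -0.16 ± 0.55.

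Because lymphatic endothelium also makes Lyve1, its markers were read beside it. The sum of 7 lymphatic genes was 61.5 to 122 CPM in HFD fed, 59.4 to 188 in HFD fasted, 81.1 to 133 in Ensure fed and 76.2 to 162 CPM in Ensure fasted libraries. It was lowest in HFD fasted 28, where Flt4, the receptor of lymphatic growth, was at 11.5 CPM (16.9 to 48.8 elsewhere). Prox1, the lymphatic master regulator, was at 0.164 CPM there, a value that rests on 3 counts. Pdpn, which lymphatic and stromal cells make, was in contrast highest there, at 45.2 CPM beside at most 41.0 CPM elsewhere. Between groups 0 of 6 tested lymphatic markers passed in any comparison, where 0% to 20.3% of all genes did. At most 1 of the 6 had an unadjusted p under 0.05, against 7.71% to 36% of all genes. Of other resident macrophage genes, F13a1 (28.9 CPM, 88.1 to 393 elsewhere), Cbr2 (10.2 CPM) and Cd209f (2.14 CPM) were lowest in the same library, 3 genes picked after their values were seen. Timd4 (0.712 CPM, 13 counts) and Cd209b (0.603 CPM, 11 counts), picked in the same way, were lowest there too. Mgl2 (17.1 CPM) and Ccl8 (15.3 CPM) lay within the range of the other HFD fasted libraries, and so did Mrc1 and Folr2. The 22 genes of the resident list summed to 3910 CPM in HFD fasted 28, against a median of 3720 CPM over all libraries. None of the genes of that list named here exceeded the 28.9 CPM of F13a1 there. The sum thus rests on other genes of the list and says little about the named ones. The cells that make those other genes were not identified. The part of either cell type in Lyve1 was not tested.

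Folr2, the folate receptor beta of resident macrophages, was nearly constant with HFD. It was at 77.4, 73.8, 76 and 77.8 CPM in HFD fed 21, 22, 25 and 27 and at 83.4, 71, 66.5 and 71.2 CPM in HFD fasted 23, 24, 26 and 28. With Ensure it ranged from 68.2 to 154 CPM in the fed libraries (median 107), and was 79.6, 40.5, 137, 222 and 176 CPM in Ensure fasted 2, 5, 7, 8 and 17. Coefficients of variation were 2.39% and 9.91% in the HFD groups and 30.7% and 55.5% in the Ensure groups. Ensure fasted against HFD fasted gave a log2 fold change of 0.84 ± 0.35 (95% interval 0.11 to 1.58, adjusted p = 0.188), which passed without Ensure fasted 5 (1.04, adjusted p = 0.0292). It also passed without the 5 tract-rich libraries (1.28, adjusted p = 0.0127). Without Ensure fasted 8 it was 0.55 (adjusted p = 0.334), and without HFD fasted 28 it was 0.80 (adjusted p = 0.339). Fed diets differed by 0.47 ± 0.33 (adjusted p = 0.511), and fasting gave -0.06 ± 0.36 with HFD and 0.31 ± 0.31 with Ensure.

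Ccr2, the receptor by which monocytes follow CCL2 into tissue, was at 87.6, 64.1, 152 and 63 CPM in HFD fed 21, 22, 25 and 27. HFD fasted 23, 24, 26 and 28 were at 77.8, 38.2, 73.8 and 76.7 CPM, Ensure fed libraries at 62.4 to 161 CPM (median 100), and Ensure fasted 2, 5, 7, 8 and 17 at 66, 42.5, 106, 146 and 87.8 CPM. All groups overlapped. Fasted libraries had the lower fitted level on both foods, by -0.46 ± 0.37 with HFD and -0.24 ± 0.32 with Ensure on the log2 scale (adjusted p = 0.581 and 0.619), and neither passed. Without HFD fed 25 the HFD value was -0.10. Its ligand Ccl2 was at 8.88 to 59.0 CPM in HFD fed and 8.52 to 24.6 CPM in HFD fasted libraries (log2 fold change -1.09 ± 0.57, adjusted p = 0.385).

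Clec10a, a galactose-binding lectin of macrophages and dendritic cells, was at 47.4, 49.9, 51.6 and 53.2 CPM in HFD fed 21, 22, 25 and 27 and at 73.9, 50.2, 62.9 and 58.7 CPM in HFD fasted 23, 24, 26 and 28. Ensure fed libraries ranged from 47.4 to 90.9 CPM (median 63.8), and Ensure fasted 2, 5, 7, 8 and 17 were at 58.3, 30.3, 98.5, 146 and 125 CPM. Groups overlapped, with 3 of the 5 Ensure fasted libraries above all others of the series. Fasting with Ensure gave a log2 fold change of 0.45 ± 0.28 (adjusted p = 0.257), which passed without Ensure fasted 5 (0.62, adjusted p = 0.0339) and without the 5 tract-rich libraries (0.75, adjusted p = 0.0133). Without Ensure fasted 8 it was 0.18 (adjusted p = 0.655). Clec10a and its neighbour paralog Mgl2 share 270 stretches of 50 bases, 8.49% of those of Clec10a and 12.2% of those of Mgl2, so counts of either are uncertain. Markers of dendritic cells, 10 genes, summed to 64.3 to 169 CPM over all libraries, and their part in Clec10a was not tested.

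Retnla, which encodes a protein secreted by alternatively activated macrophages, spanned 13.7-fold within the Ensure fed group. HFD fed 21, 22, 25 and 27 were at 122, 285, 145 and 191 CPM and HFD fasted 23, 24, 26 and 28 at 151, 246, 156 and 37.4 CPM. Ensure fed libraries spanned 43.8 to 597 CPM (median 351), and Ensure fasted 2, 5, 7, 8 and 17 were at 274, 82.1, 378, 121 and 136 CPM. The low end of Ensure fed was Ensure fed 9, in which Lyve1 (135 CPM) and Folr2 (154 CPM) were the highest of the group. The log2 fold change of Ensure fed against HFD fed was 0.87 ± 0.61 and that of Ensure fasting -0.77 ± 0.57 (adjusted p = 0.506 and 0.339). A 95% interval of -1.97 to 0.42 for Ensure fasting shows how little these libraries limit its size.

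**Figure D2:**
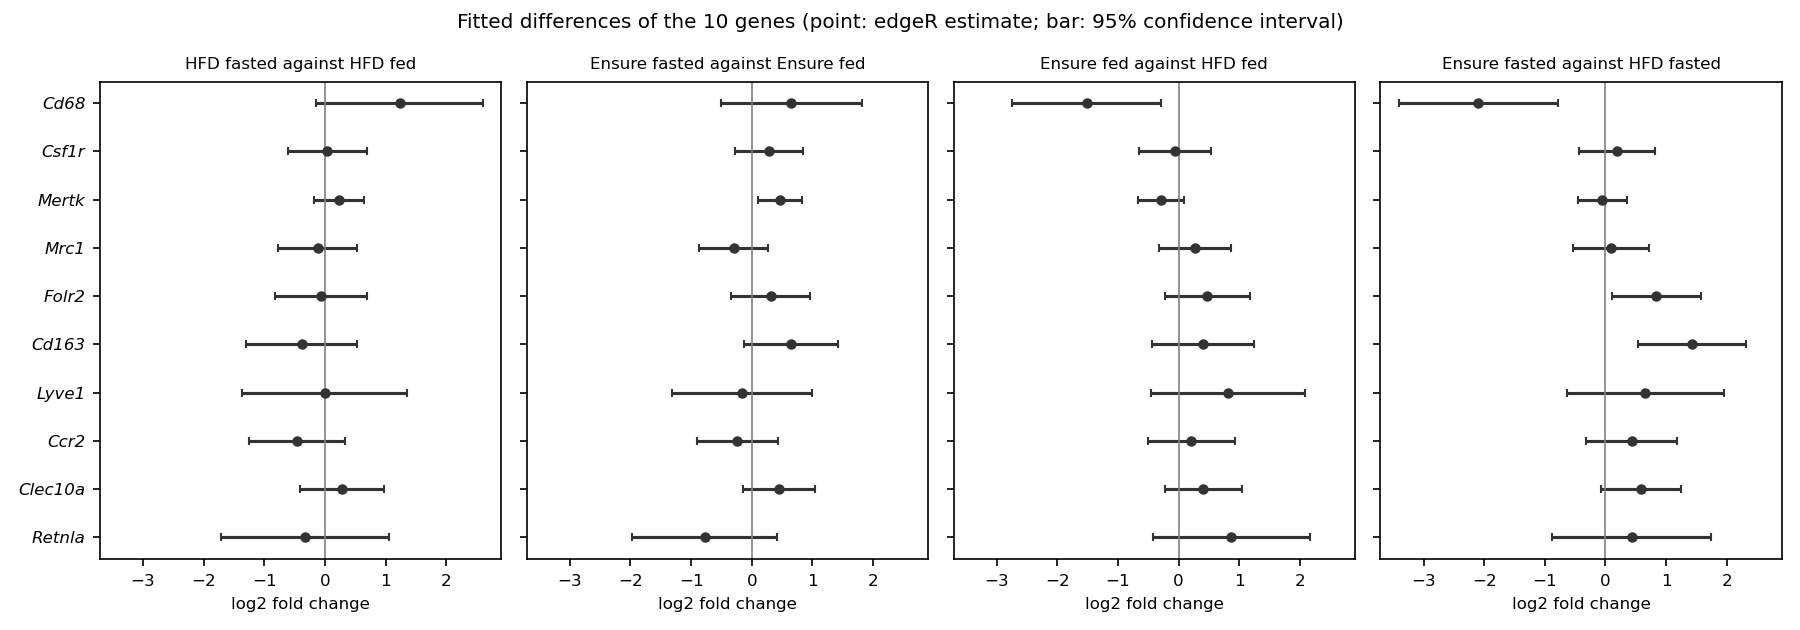
Fitted log2 fold changes of the 10 genes in 4 comparisons, with the edgeR estimate as a point and its 95% confidence interval as a bar, and 0 as a grey line. Intervals left out 0 for Mertk in Ensure fasting, for Cd68 between both pairs of diets and for Cd163 and Folr2 between the fasted diets, and none of these passed after adjustment over all genes.

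Read as a set, 0 of 10 genes passed in each of the 5 comparisons of the edgeR fit, where the share of all tested genes that passed was 1.22% for HFD fasting and 20.3% for Ensure fasting. That share was 0% for the difference between these responses, 4.26% for the fed diets and 2.82% for the fasted diets. At an unadjusted p under 0.05 there were 0, 1, 0, 1 and 3 of 10 in the same order, against 14.8%, 36%, 7.71%, 18.6% and 20.3% of all genes. Groups did not overlap for Cd68 and Mertk between the fed diets, both lower with Ensure, 2 of 10 genes where 13.3% of all genes did not overlap and 7.37% were apart in that direction. In the other 3 comparisons of groups the count was 0, against 8.45% (HFD fasting), 15% (Ensure fasting) and 3.99% (fasted diets) of all genes. The median log2 fold change of the set was -0.03 for HFD fasting and 0.30 for Ensure fasting, and 0.06 and 0.11 over all genes. It was 0.34 for the fed and 0.43 for the fasted diets, beside -0.04 and 0.02. The comparisons share libraries, so these values are not separate lines of evidence.

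DESeq2 called Mertk in Ensure fasting, where it called 27.4% of all genes, and Cd68 and Cd163 between the fasted diets, where it called 8.09%. Voom with sample weights called 5 of 10 (Csf1r, Mertk, Cd163, Folr2, Clec10a), all higher, both in Ensure fasting and between the fasted diets with Ensure, where it called 35.2% and 21.3% of all genes. Between the fed diets it called Cd68 and Lyve1, where it called 34% of all genes. Voom gave HFD fasted 28 and Ensure fasted 5 the weights 0.0907 and 0.135, so its values rest little on these libraries. A fit of the compared groups alone called Cd68, Mertk and Lyve1 between the fed diets, where it called 2933 of 14838 genes. With lane as a term no gene of the set passed in any comparison. Few genes passed in that fit at all. Of 16015 it called 62 in HFD fasting, 760 in Ensure fasting and 0 for their difference. Between the fed diets it called 2 and between the fasted diets 0.

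Each gene was also set against Csf1r within its own library, a ratio chosen after the values had been seen and given as a description. Mrc1 had 0.796 to 1.08 counts per Csf1r count in Ensure fed libraries and 0.536 to 0.665 in Ensure fasted libraries, so the 2 groups did not overlap. The ratio was 0.671 to 0.754 in HFD fed and 0.562 to 0.8 in HFD fasted libraries. Of the other groups, only HFD fasted 26 reached into the range of Ensure fed, above the lowest library, Ensure fed 9. Cd68 had 0.452 to 0.796 counts per Csf1r count in HFD fed and 0.572 to 3 in HFD fasted libraries, and 0.177 to 0.302 and 0.195 to 0.514 with Ensure. Both pairs of diets were thus apart in this ratio.

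Of 9 such ratios, 0 did not overlap in HFD fasting, 1 in Ensure fasting (Mrc1), 2 between the fed diets (Cd68 and Mrc1) and 1 between the fasted diets (Cd68). Among all other tested genes set against Csf1r the share was 1.5%, 2.77%, 5.73% and 2.25% in the same order. Lyve1 had 0.159 to 0.312 counts per Csf1r count in all 11 Ensure libraries, where HFD libraries spanned 0.00507 to 0.469. Per count of Cd68, Lyve1 had 0.00169 counts in HFD fasted 28 and up to 1.51 in an Ensure fed library.

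**Figure D3:**
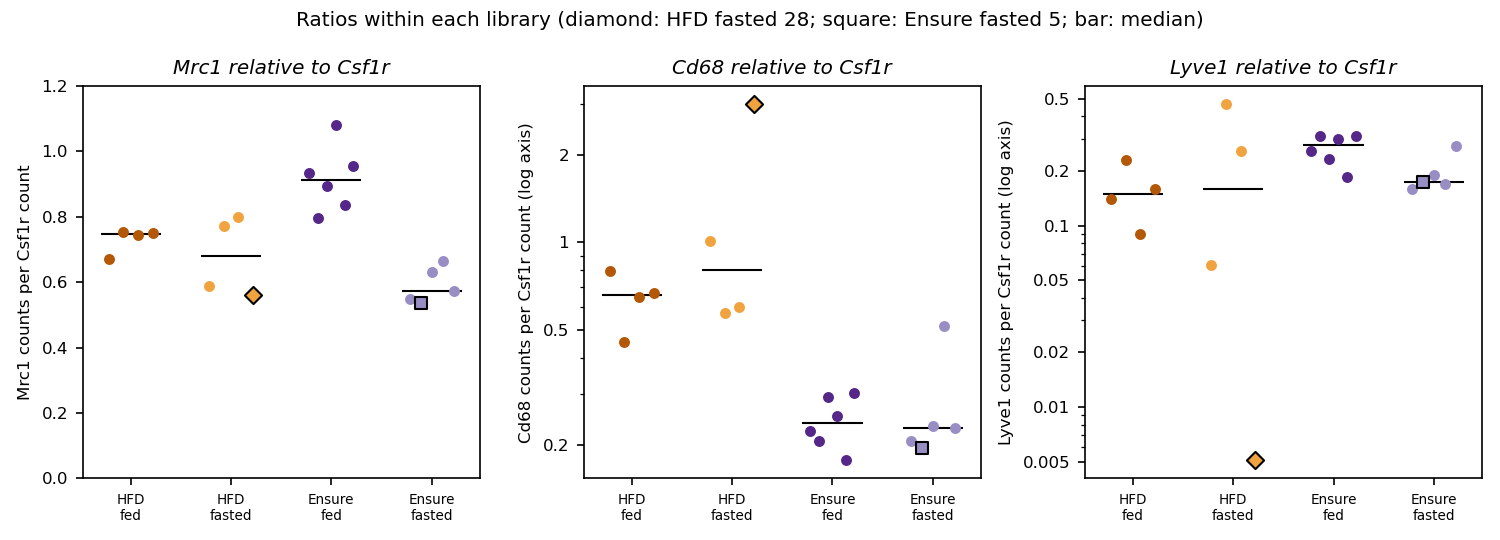
Counts of Mrc1 (linear axis from 0), Cd68 and Lyve1 (log axes) per count of Csf1r in each library, by group, with the group median as a bar, HFD fasted 28 as a diamond and Ensure fasted 5 as a square. Mrc1 per Csf1r was at least 0.796 in all Ensure fed and at most 0.665 in all Ensure fasted libraries, and Cd68 per Csf1r was higher with HFD than with Ensure among fed and among fasted libraries.

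Pairs of the 10 genes were then correlated across the 19 libraries on log2(CPM + 0.5), 45 pairs with permutation p-values adjusted over the pairs. By both Pearson's r and Spearman's rho, 15 pairs passed, and all 15 were positive. Folr2 and Clec10a were the closest by Pearson's r (r = 0.935, permutation p = 1e-05, and rho = 0.814, permutation p = 5e-05, adjusted p for r = 0.000225), and r was 0.877 without the 2 most extreme libraries, Ensure fasted 8 and 17. With the group means removed it was 0.957, while within lane 7 (n = 9) it was 0.279. Mrc1 and Ccr2 had r = 0.839 and rho = 0.902 (permutation p = 1e-05 for each, the smallest that 100000 permutations can give, adjusted p for r = 0.000225), and r = 0.817 without Ensure fasted 5 and HFD fasted 24. Within lane 7 their r was 0.867. Csf1r, Mrc1, Folr2, Ccr2 and Clec10a formed a block in which all 10 pairs passed. Within lane 7 r in this block ran from 0.164 (Ccr2 with Clec10a) to 0.867, and it was 0.184 for Csf1r with Folr2. The block was not separate from the genes below. Csf1r also passed with Cd68 (r = 0.584, rho = 0.546) and Mertk (r = 0.648, rho = 0.637), and Folr2 with Cd163 (r = 0.593, rho = 0.684). With group means removed, r within the block was 0.637 to 0.957. Cd68 with Mrc1, Folr2, Ccr2 and Clec10a then had r = 0.593 to 0.756, against 0.0923 to 0.358 over all libraries. Mertk with the same genes had 0.542 to 0.66, against 0.165 to 0.446. Cd68 and Mertk thus lay nearer the block once group means were removed. Within lane 7, with group means left in, r of these pairs ran from -0.298 to 0.31.

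Cd163 and Lyve1 also moved together (r = 0.852, permutation p = 9e-05, rho = 0.728, permutation p = 0.0007, adjusted p for r = 0.00081), at r = 0.644 without HFD fasted 28 and 0.937 within lane 7. Cd68 went with Mertk (r = 0.74, permutation p = 0.00045, rho = 0.714, permutation p = 0.00095, adjusted p for r = 0.00253), at r = 0.543 without HFD fasted 23 and 28 and 0.91 within lane 7. Cd68 and Lyve1 had r = -0.606 (permutation p = 0.015, adjusted p = 0.0422) but rho = -0.193 (permutation p = 0.428). Without HFD fasted 23 and 28 r was 0.0868, so the value over all libraries rests on those libraries. Within lane 7, which holds both of them, r was -0.938, and it was not computed there without them. Over all libraries Retnla passed with no other gene by both measures, and its largest r was 0.532, with Cd163 (permutation p = 0.0201, adjusted p = 0.0502). Within lane 7 (n = 9), which holds all HFD libraries, its r was 0.976 with Cd163, 0.892 with Lyve1 and -0.922 with Cd68. Lanes 5 and 6, with 5 libraries each, are too small for a value of their own.

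**Figure D4:**
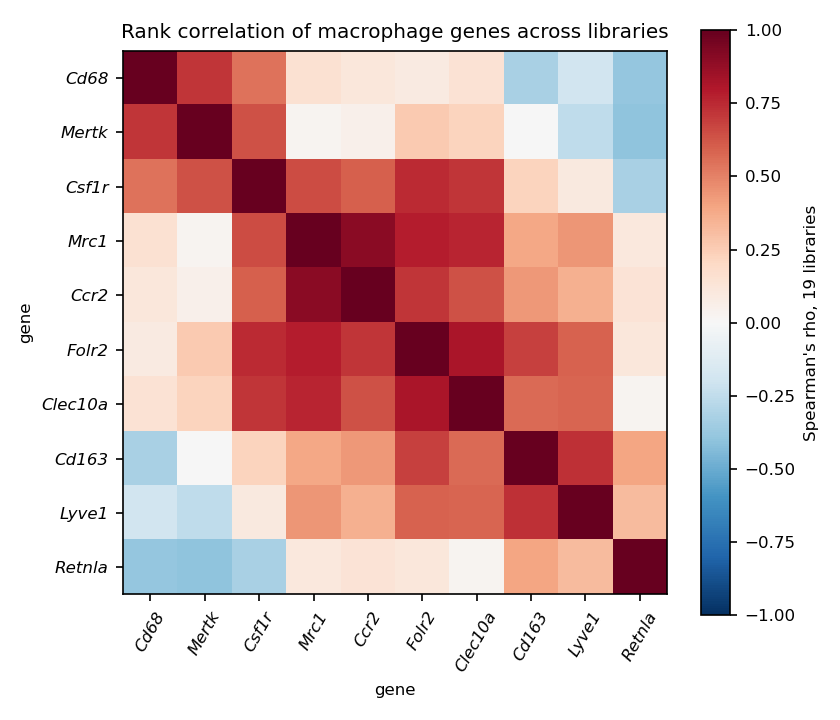
Spearman's rho of each pair of the 10 genes over 19 libraries, with group means left in, red for positive and blue for negative values. A block of Csf1r, Mrc1, Ccr2, Folr2 and Clec10a lies beside the pairs Cd68 with Mertk (0.714) and Cd163 with Lyve1 (0.728), and the largest value of Retnla is 0.393, with Cd163. The block is joined to these pairs by Csf1r with Mertk (0.637) and with Cd68 (0.546), and by Folr2 with Cd163 (0.684).

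**Figure D5:**
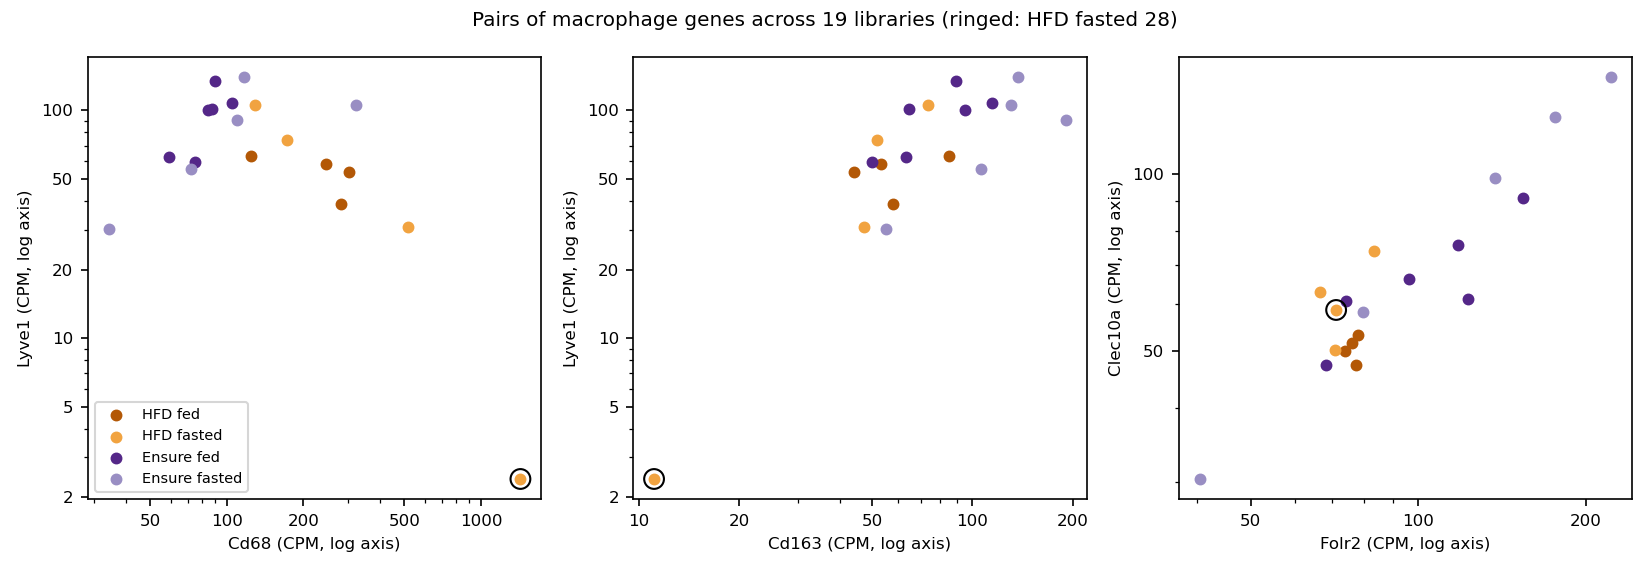
Levels of Lyve1 against Cd68, Lyve1 against Cd163 and Clec10a against Folr2 in each library (CPM, log axes), coloured by group, with HFD fasted 28 ringed. That library is at the far end of the first 2 panels, with 1430 CPM of Cd68 and 2.41 CPM of Lyve1, and within the cloud of the last.

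For each gene, the 3 most alike of 11307 other genes with a mean of at least 5 CPM were taken by Pearson's r over the 19 libraries, which share depth and tissue composition, as a description with no p. Cd68 was most like the integrin Itgb2 (r = 0.992), Arl11 (0.992) and the hexokinase Hk3 (0.991). Csf1r was most like the complement genes C1qc (0.968) and C1qb (0.96) and Rassf4 (0.935). Folr2 and Clec10a shared the transcription factor gene Maf (0.93 and 0.927) and Pld4 (0.923 and 0.913), beside Lgals9 (0.963) for Folr2 and Mnda (0.91) for Clec10a. Lyve1 was most like the lectin Cd209f (0.953), the clotting factor F13a1 (0.938) and Cd209b (0.915). Other genes stood near the rest of the set: Cd47 (0.964), Fap (0.941) and Dse (0.938) for Mrc1, Parva (0.922), Heg1 (0.915) and Farp2 (0.915) for Cd163. Mertk was nearest to Pnpla7 (0.904), Cblb (0.9) and Fgd6 (0.898), and Ccr2 to Hp (0.892), Tph2 (0.888) and Fam114a1 (0.885). Retnla had the loosest partners, Cd209a (0.823), Gfra2 (0.812) and Cd209d (0.796).

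Ligands and partners of these receptors numbered 19, of which 17 were tested. In Ensure fasting 2 of the 17 passed, both higher, where 10.6% of all genes did: Axl and Tyro3, the receptor kinases related to Mertk. The mean level of Axl was 180 ± 33.3 CPM (SD) in Ensure fed and 278 ± 108 CPM in Ensure fasted libraries, with a fitted difference of 0.63 on the log2 scale (adjusted p = 0.041). Tyro3 had 3.44 ± 0.582 and 6.52 ± 3.06 CPM (0.92, adjusted p = 0.0469). Their calls were lost in 13 and 14 of the 19 fits that leave out 1 library, up to adjusted p = 0.129 for Axl without Ensure fasted 8 (0.36) and 0.19 for Tyro3 without Ensure fasted 2 (0.62). In the other comparisons 0 of 17 passed. The growth factor Csf1 had group means of 69.4 to 84.9 CPM and Il34 of 24.7 to 31.7 CPM. Gas6, a bridging ligand of Mertk, had 244 to 287 CPM, and Pros1, the other, 112 to 143 CPM.

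Of 24 other macrophage genes, among them the complement C1q genes, 0 passed in any comparison of the edgeR fit. The order below is HFD fasting, Ensure fasting, their difference, the fed diets and the fasted diets. Of all genes 1.22%, 20.3%, 0%, 4.26% and 2.82% passed. At an unadjusted p under 0.05 there were 0, 1, 0, 7 and 9 of the 24, against 14.8%, 36%, 7.71%, 18.6% and 20.3% of all genes. Voom with sample weights called 10 of the 24 between the fed diets, where it called 34% of all genes, and 7 between the fasted diets, where it called 21.3%. Their median log2 fold change was 0.36 and 0.27 for the 2 fasting comparisons and -0.35 and -0.36 for Ensure against HFD, fed and fasted.

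Other resident macrophage genes, 22 in number, gave calls in 3 comparisons, and with lane as a term only Mgl2 in Ensure fasting kept one (-1.40, adjusted p = 0.0221). The fit with lane called 760 genes in all in Ensure fasting, 2 between the fed diets and 0 between the fasted diets. Between the fed diets 2 of 22 passed as higher with Ensure, where 2.09% of all genes did, and 13 of the 22 had a positive fold. Ccl8, a chemokine of resident macrophages, was at 7.76 to 19.4 CPM in HFD fed and 70.4 to 141 CPM in Ensure fed libraries (log2 fold change 2.79 ± 0.39, adjusted p = 0.00109), and kept the call without any 1 library. With lane as a term its value was 2.58 (adjusted p = 0.382). Ccl8 passed between the fasted diets too (1.72 ± 0.38, adjusted p = 0.0217), though not without HFD fasted 23 (1.58, adjusted p = 0.0769) or HFD fasted 28 (1.62, adjusted p = 0.0753).

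Mgl2, the paralog of Clec10a, was at 42.7 to 108 CPM in Ensure fed libraries, 18.6 to 47.5 CPM in Ensure fasted and 25.1 to 42.8 CPM in HFD fed libraries. It passed as lower in Ensure fasting (log2 fold change -1.24 ± 0.27, adjusted p = 0.00456). It was the 1 of 22 that did, where 9.77% of all genes passed as lower. Of the 22, 13 had a positive fold. Without the 5 tract-rich libraries Mgl2 was at -1.07 (adjusted p = 0.0683). With HFD its value was -0.91 ± 0.31 (adjusted p = 0.185), and the 2 groups did not overlap. Clec10a itself, with 0.45 in Ensure fasting, had the other sign. Mgl2 was higher in Ensure fed than HFD fed libraries (1.23 ± 0.29, adjusted p = 0.0243), which did not pass without HFD fed 21 (1.18, adjusted p = 0.0746), 22 (1.26, 0.0696) or 27 (1.2, 0.0815) or Ensure fed 1 (1.11, 0.0535) or 12 (1.11, 0.0542).

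Of the same list of 22, the transcription factors Klf2 (0.55, adjusted p = 0.0316) and Klf4 (0.55, adjusted p = 0.0357) were higher in Ensure fasting. The last to pass was Cbr2, a carbonyl reductase, higher in Ensure fasted than HFD fasted libraries (1.29, adjusted p = 0.0426). The cells of the undivided tissue that made these RNAs were not identified. These calls were lost in 7, 10 and 15 of the 19 fits that leave out 1 library. In Ensure fasting 7 of 8 smooth muscle markers also passed as higher (median log2 fold change 1.90). Ensure fasted 5 held the most of their RNA. Without that library Klf2 was at 0.61 (adjusted p = 0.0162) and Klf4 at 0.60 (adjusted p = 0.0247). The background was 10.6% of genes passing as higher in Ensure fasting and 1.63% passing as higher with Ensure among the fasted. Of 15 other monocyte genes, Plac8 was higher in Ensure fasting (2.17, adjusted p = 0.0241) through Ensure fasted 5, at 179 CPM beside 7.98 to 19.6 in the other 4 (0.33, adjusted p = 0.441 without it). Vcan, a matrix proteoglycan of monocytes and stromal cells, was higher with Ensure among the fasted (1.11, adjusted p = 0.0312; up to adjusted p = 0.0934, without HFD fasted 28, and lost in 5 of 19).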

How the data were processed

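Per the labels' protocols, RNA was prepared with an RNeasy kit, polyadenylated RNA was selected, and TruSeq libraries were run on a HiSeq2000. The authors deposited whole-number read counts per gene for each of the 19 libraries; bcl2fastq 1.8.4, TopHat2 2.1, HTSeq 0.6.1 and the mouse build mm9 are named in the submitters' processing notes, while neither settings, strand use nor annotation is given in the sources used here. Reads outside genes (13.01 to 17.32%), ambiguous reads (0.7 to 0.89%) and reads aligned to several places (20.67 to 27.7%), as shares of all entries counted by HTSeq, were kept out. Depth was 12.82 to 22.55 M gene counts, so that 3 counts are worth 0.133 to 0.234 CPM, which covers counting error only.

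All 19 libraries entered 1 edgeR 4.0.16 quasi-likelihood fit (R 4.3.3) with 4 group means, TMM scaling and a filter at a minimum count of 10, and p-values were adjusted over 16015 genes by Benjamini-Hochberg. Standard errors and 95% intervals were derived from the fold change and its F statistic. The scripts were tested on simulated data. Alternatives were other scalings and filters, DESeq2 1.42.0, limma 3.58.1 voom with sample weights, a fit of the compared groups alone, lane as a term, each library left out and the tract-rich libraries left out. The members and gene lists were chosen with earlier results of these data known. All 10 members are named, and from each other list up to 4 genes per comparison by smallest p, every ligand or partner that passed, and the 3 genes most correlated with each member. Exon lengths and overlaps come from GENCODE M21 and promoters from RefSeq, both on GRCm38, used for lengths, overlaps and sequence only.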

Additional observations from a re-analysis of the deposited data

Results flagged for a closer look

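The level of each of the 10 genes was examined in each of the 4 groups, 40 sets of values in all, for a library that stands far from the rest of its group, and chance alone would mark about 1 in 20. There were 2 such values. Cd68 in Ensure fasted 8 was at 322.0 CPM, where the next library of the group was at 117 CPM, and the same library had the highest Csf1r, Mrc1, Folr2 and Clec10a of all 19. Ccr2 in HFD fasted 24 was at 38.2 CPM, where the next library of its group was at 73.8 CPM, and this is 1 of the 5 libraries rich in epididymis and testis genes.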

How the results depend on the processing

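No paired analysis was possible because the numbers in the titles are not shared between groups. The count of the 10 genes that pass was 0 in all 5 comparisons of the edgeR fit. In HFD fasting it was 1 without the 8 libraries rich in tract or Cdh16 reads (Cd68, 2.14, adjusted p = 0.0444). In Ensure fasting it was 1 with DESeq2 size factors, library size alone, the stricter filter, DESeq2, the compared groups alone and without the 5 or the 8 libraries, 5 with voom, and 0 to 2 with 1 library left out. For the difference of the fasting responses it was 1 with voom (Mertk, 0.65, adjusted p = 0.0274). Between the fed diets it was 2 with voom (Cd68, Lyve1), 3 with the compared groups alone (Cd68, Mertk, Lyve1) and 1 without the 8 libraries (Folr2). Between the fasted diets it was 2 with DESeq2, 5 with voom, 3 without the 5 libraries, 5 without the 8 libraries, and 0 to 2 with 1 library left out. With lane as a term it was 0 throughout, where 62, 760, 0, 2 and 0 of all genes passed in the order above. That fit links the diets only through Ensure fed 18. The difference of the fasting responses needs all 4 groups and was not run with the compared groups alone. Over all genes the calls ranged, over the fits of all 19 libraries, from 62 to 2974 in HFD fasting, 760 to 5638 in Ensure fasting, 0 to 1170 for their difference, 2 to 5441 between the fed and 0 to 3418 between the fasted diets, the upper ends all from voom. With the compared groups alone they were 1, 3602, 2933 and 1 in HFD fasting, Ensure fasting, the fed and the fasted diets. Without the 5 libraries they were 143, 1145, 528 and 617 of 15553 genes in the same order. Without the 8 libraries they were 910, 772, 213 and 1598 of 15257 genes. With 1 library left out they ranged from 2288 to 4542 in Ensure fasting and from 209 to 767 between the fasted diets.

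Signs turned as follows, on the log2 scale, for genes that did not pass in the edgeR fit. In HFD fasting Lyve1 was 0.05 with DESeq2 size factors, 0.09 with library size, 0.01 with no filter, 0.05 with the stricter filter, 0.05 with DESeq2, 0.28 with voom and 0.07 with the compared groups alone; voom gave Cd68 -0.25, Csf1r -0.27 and Mertk -0.13, and without the 8 libraries Mrc1 was 0.06 and Folr2 0.01. In Ensure fasting Lyve1 was 0.14 with voom, 0.07 with lane and 0.13 without the 5 libraries, where Mrc1 was 0.01 and Ccr2 0.12, and Ccr2 was 0.02 without the 8. For the difference, voom gave Cd68 0.80, Mrc1 0.07 and Ccr2 -0.09, lane gave Lyve1 0.07, leaving out the 5 gave Mrc1 0.02, Lyve1 0.69 and Retnla 0.19, and leaving out the 8 gave Lyve1 1.63 and Retnla 0.46. Between the fed diets Csf1r was 0.06 without the 5 and 0.14 without the 8. Between the fasted diets Mertk was 0.39 with voom and 0.06 without the 5. With 1 library left out, HFD fasting ranged from -0.57 to 0.43 for Lyve1, -0.11 to 0.22 for Csf1r, -0.23 to 0.01 for Mrc1 and -0.70 to 0.02 for Retnla, and Ensure fasting from -0.42 to 0.01 for Lyve1 and -0.04 to 0.84 for Cd68. The difference ranged from -0.14 to 0.38 for Ccr2, -0.64 to 0.41 for Lyve1, -1.28 to 0.40 for Cd68 and -0.12 to 0.32 for Clec10a. The fed diets ranged from -0.17 to 0.04 for Csf1r, and the fasted diets from -0.16 to 0.28 for Mrc1 and -0.20 to 0.12 for Mertk. The cause was not tested. In all, 425 of 490 alternative values of the 10 genes, other than those with 1 library left out, kept both sign and side of the threshold. The number of libraries and their spread limit the precision here, since the lowest level, Lyve1 in HFD fasted 28, still rests on 44 counts.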
